A study of Sus scrofa with 6 samples.

Results

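The 10 genes described here belong to the protein folding and quality control system of the endoplasmic reticulum (ER): the transcription factor gene XBP1, the ER chaperone genes HSP90B1, HYOU1, CALR and CANX, the disulfide isomerase genes PDIA3 and PDIA4, the co-chaperone gene DNAJB9, and HERPUD1 and SEL1L of ER-associated degradation. They were taken by gene symbol from a deposited table of TPM, the length-normalised expression unit of RSEM, and each symbol matched 1 of the 31908 Ensembl pig gene IDs in that table. RNA had been sequenced from IPEC-J2, a non-transformed epithelial cell line from the jejunum of newborn pigs, after 24 h with PBS (CON, 3 libraries) or with 50 μM chenodeoxycholic acid (CDCA, 3 libraries), a primary bile acid. Both groups are the same line, so they stand for cultured cells of 1 line and not for animals. The study calls the libraries of a group biological replicates without saying how the cultures were kept apart, and p-values measure the spread between these libraries.

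Proteins that enter the ER are folded there by chaperones, and disulfide bonds are set by protein disulfide isomerases. Unfolded proteins set off the unfolded protein response (UPR), whose sensors are IRE1, PERK and ATF6. Activated IRE1 removes a short piece from the XBP1 mRNA, and the protein made from the spliced mRNA switches on genes for folding, for transport into the ER and for ER-associated degradation (ERAD). In ERAD, a misfolded protein is passed to a ubiquitin ligase in the ER membrane and then to the proteasome. The intestinal epithelium, which secretes and absorbs, is known to depend on XBP1.

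Each gene's value is the sum of the TPM of its listed transcripts, which is a level per transcript length and so can be compared between genes. The listed TPM summed to between 351770 and 366073 per library, short of the 1000000 of a complete TPM table, so a value can miss transcripts that the table does not hold. Several genes that most cells use heavily had values near 0. HSPA5, which encodes the main ER chaperone BiP, had a mean of 0.960 TPM in CON, P4HB (protein disulfide isomerase) 0.953 TPM, PPIB (cyclophilin B) 0.0567 TPM and ATF4 0.0133 TPM, all but HSPA5 picked after their values were seen. Clean read totals per library are stated by the study, but TPM do not give the reads behind a single gene, so values carry no counting error here. Of 7 epithelial marker genes, 6 were listed: EPCAM, KRT8, KRT18 and CLDN4 reached at least 1 TPM in every library, whereas CDH1 and VIL1 stayed under 1 TPM in all of them. The epithelial markers summed to 624 to 648 TPM in the CON libraries and to 1182 to 1322 TPM in the CDCA libraries, with CLDN4, a tight junction gene, at means of 225 and 806 TPM. The 6 fibroblast markers summed to at most 1.82 TPM in any library. The 4 immune markers summed to 1.26 to 2.49 TPM in CON and to 6.49 to 7.24 TPM in CDCA, mostly from CD68 (4.44 to 5.33 TPM in CDCA), with the pan-leukocyte gene PTPRC at no more than 0.01 TPM. The 3 endothelial markers summed to at most 2.37 TPM, and 1 of them, PECAM1, reached at least 1 TPM in every library (1.12 to 2.14 TPM). The part of these marker levels in the results was not tested. In bulk RNA, fewer cells of a kind and less RNA per cell cannot be told apart.

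After CDCA treatment, 8 of the 10 genes were higher and none was lower than in CON. The steepest rises were those of DNAJB9 (3.55-fold by mean TPM), HERPUD1 (2.58-fold) and SEL1L (2.42-fold), which act on BiP or in ERAD. Next came CANX (1.87-fold), XBP1 (1.74-fold), HYOU1 (1.49-fold) and HSP90B1 (1.41-fold). The abundant genes PDIA4 (1.08-fold), PDIA3 (1.07-fold) and CALR (1.05-fold) had ratios close to 1. Differences were tested by limma on log2(TPM + 1) over the 8708 genes that averaged 1 TPM or more, with the Benjamini-Hochberg false discovery rate (FDR), and all 10 genes passed that filter. Of all tested genes, 29.3% were higher in CDCA at an FDR under 0.05 and 23.9% were lower (53.2% in either direction), against 8 and 0 of these 10 (0 also at an unadjusted p under 0.05). The study also set a fold limit of 2, with edgeR. Here the limit was a log2 fold change over 1 on log2(TPM + 1), which is stricter for weakly expressed genes. With this limit DNAJB9, HERPUD1 and SEL1L passed, or 3 of 10, beside 3.51% of all genes. None passed the same limit downwards, beside 3.9%. The median log2 fold change was 0.68 over the 10 genes and 0.05 over all tested genes. The groups did not overlap for 9 of the 10 genes, each with every CDCA library above every CON library, which held for 33.7% of all tested genes (27.8% had every CDCA library below). Because a fold change on the log2(TPM + 1) scale understates the change of weakly expressed genes, ratios of mean TPM are given beside it.

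**Figure D1:**
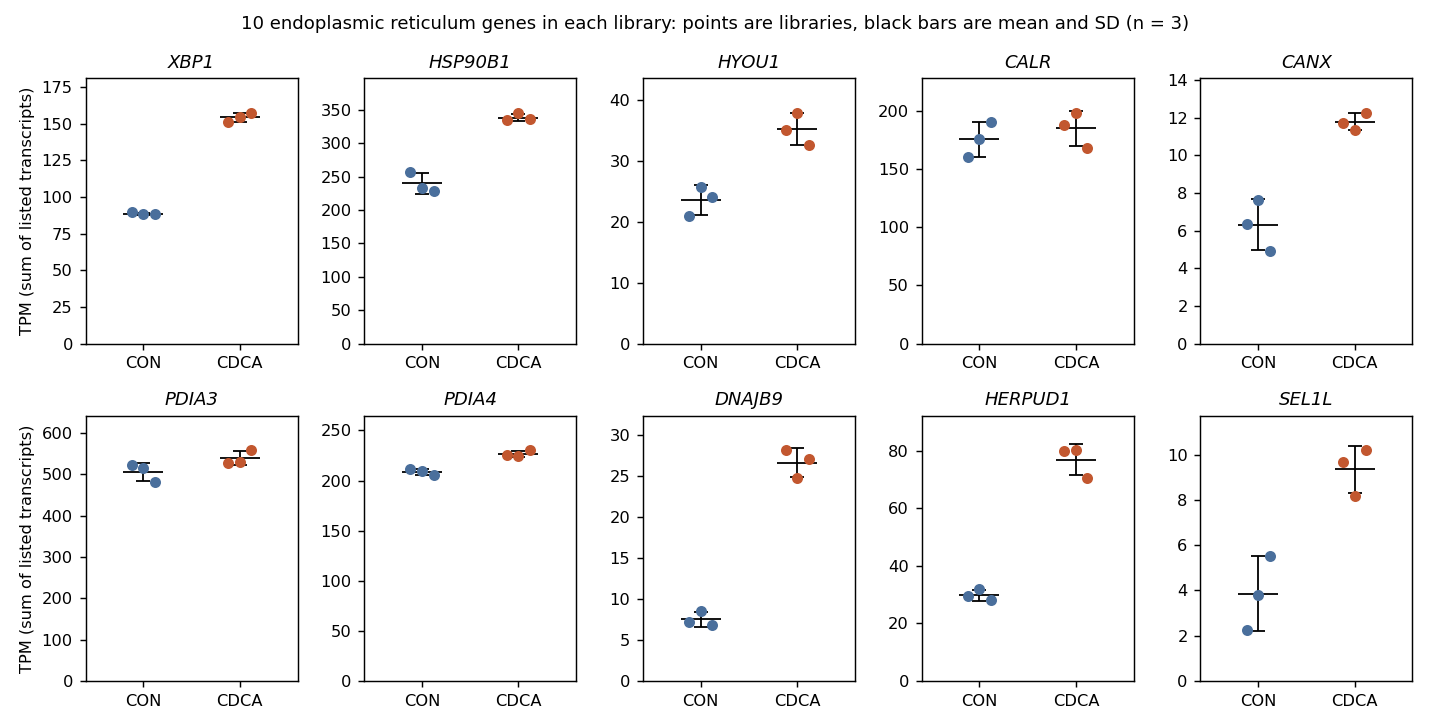
TPM (vertical axis, from 0) of the 10 genes in the 3 CON and 3 CDCA libraries; points are libraries and black bars the mean and SD. The CDCA points lie above the CON points for every gene but CALR, whose CDCA library at 169 TPM lies below 2 of the CON libraries.

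XBP1, the transcription factor of the IRE1 branch, gave 89.5, 88.1 and 88.5 TPM in the CON libraries against 151, 155 and 157 TPM in the CDCA libraries. The CON libraries lay close together, and the groups were far apart. The mean of 88.7 TPM (SD 0.72) rose to 154 TPM (SD 3.1, n = 3 in each group), and the log2 fold change of 0.79 had an SE of 0.03 (limma FDR 9.8e-06). Omitting any single library gave 0.78 to 0.81.

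The gene had 3 listed transcripts, given without transcript IDs, so whether any of them is the spliced form is unknown. The most abundant held 89.5% of the gene's TPM in CON and rose by a ratio of 1.64, to 130 TPM (SD 2.9, n = 3). The transcript of rank 2 had a ratio of 1.81. The transcript of rank 3, singled out with its values known, had 2.87, 2.95 and 2.67 TPM in the CON libraries and 11.7, 13.6 and 12.7 TPM after CDCA, 4.47 times as much on average. On the log2 scale it rose by 1.83 (limma FDR over the 12205 listed transcripts tested, 3.4e-05), above those of the transcripts of rank 1 (0.70) and rank 2 (0.77). This transcript made up 3.19% ± 0.17 (SD, n = 3) of the gene's TPM without CDCA and 8.20% ± 0.54 (SD, n = 3) with it, with no overlap (two-sided exact permutation p = 0.1, the lowest value that 3 libraries against 3 can reach). A share within a gene does not depend on the scaling of the library, but RSEM divides reads among transcripts that share most of their sequence, and the error of that division is not in the table.

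**Figure D2:**
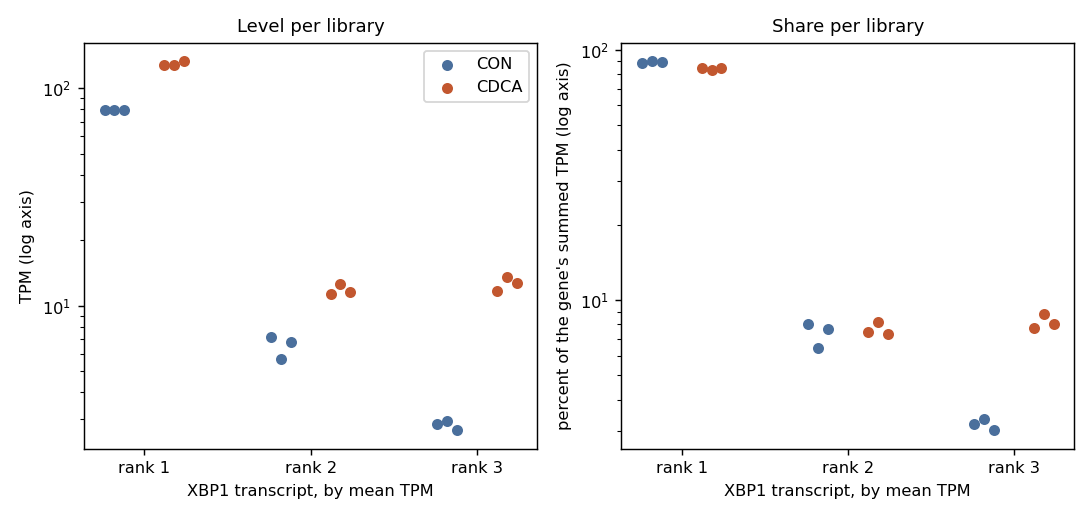
TPM (left) and percent of the gene's summed TPM (right) of the 3 listed XBP1 transcripts, ranked by mean TPM, in each library; both vertical axes are logarithmic. All transcripts are higher in CDCA, and the share of the transcript of rank 3 is 3.02% to 3.35% in CON and 7.76% to 8.80% in CDCA.

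Of the chaperones of the ER lumen, HSP90B1 encodes GRP94, the HSP90 of the ER. The CON libraries held 257, 233 and 228 TPM and the CDCA libraries 334, 345 and 336 TPM, so that the lowest CDCA library lay well above the highest CON library. HSP90B1 rose by 0.50 on the log2 scale (SE 0.05, limma FDR 0.00029). Both of its listed transcripts passed the transcript test, the main one with a ratio of 1.40 and the minor one, at 5.13 TPM (SD 1.4, n = 3) without CDCA, with a ratio of 2.01. In TPM as deposited, rather than in fold, HSP90B1 made the largest contribution: it added 98.8 TPM, or 31.5% of the rise in the summed TPM of the 10 genes. The size of that rise depends on the scaling of the libraries. HYOU1 encodes GRP170, which exchanges the nucleotide of BiP. Its CON levels of 21.0, 25.7 and 24.1 TPM stood against CDCA levels of 35.2, 37.9 and 32.7 TPM, again without overlap. HYOU1 rose by 0.56 on the log2 scale (SE 0.09, limma FDR 0.002). HYOU1 had 8 listed transcripts, of which 5 were abundant enough to test, and these had ratios between 1.28 and 2.16; those of rank 1 and rank 4 passed the transcript test (limma FDR 0.0091 and 0.037).

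The related lectin chaperones CALR and CANX, which hold glycoproteins in the ER until they are folded, differed in their values. CALR (calreticulin, soluble in the ER lumen) measured 161, 176 and 191 TPM in the CON libraries, against 188, 198 and 169 TPM after CDCA. Its groups overlapped, and the log2 fold change was 0.07 with a 95% interval from -0.12 to 0.27 (limma FDR 0.48). CANX (calnexin, anchored in the ER membrane) had far lower values, 6.35, 7.63 and 4.92 TPM for CON and 11.7, 11.4 and 12.2 TPM for CDCA. Its groups were apart, and it rose by 0.82 on the log2 scale (SE 0.14, limma FDR 0.0024). Of its 7 listed transcripts 1 was tested, and that one made up 83.3% of its CON level. The log2 ratio of CALR to CANX within a library was 4.66, 4.53 and 5.28 in CON and 4.01, 4.13 and 3.79 in CDCA, a difference of -0.85 without overlap (two-sided exact permutation p = 0.1, the lowest possible, and 0.4 after adjustment over the 4 ratios tested). CANX is usually an abundant mRNA, and whether all of its transcripts are listed is unknown.

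PDIA3 (ERp57, which works with CALR and CANX) and PDIA4 (ERp72) form and rearrange disulfide bonds. PDIA3 was the most abundant of the 10 genes, with CON values of 522, 516 and 481 TPM and CDCA values of 528, 531 and 558 TPM. The CDCA values lay just above the CON values, and the difference did not pass the test (log2 fold change 0.09, 95% interval -0.02 to 0.20, limma FDR 0.13). PDIA4 ranged over 211, 210 and 205 TPM without CDCA and 225, 224 and 230 TPM with it. Its libraries lay close together within each group, and a log2 difference of 0.12 (SE 0.03) had a limma FDR of 0.020. Across 15 settings of the analysis, the FDR of PDIA4 was under 0.05 in 8, and that of CALR and of PDIA3 in none. The log2 ratio of PDIA4 to PDIA3 within a library averaged -1.28 ± 0.04 (SD, n = 3) in CON and -1.25 ± 0.03 (SD, n = 3) in CDCA (two-sided exact permutation p = 0.4, 0.8 after adjustment over 4 ratios). PDIA3 and PDIA4 each had 1 listed transcript.

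The small changes of CALR, PDIA3 and PDIA4 were of the size of the library scaling. Of the listed TPM, the 13 genes encoded by mitochondrial DNA (mtDNA) took 13.8% to 15.0% in the CON libraries but 2.90% to 3.45% in the CDCA libraries. With totals computed without these genes, the median log2 fold change of all tested genes moved from 0.05 to -0.07, and those of CALR, PDIA3 and PDIA4 became -0.079, -0.062 and -0.037 (limma FDR 0.47, 0.29 and 0.40). The other 7 genes stayed at an FDR under 0.05 with that scaling, with log2 fold changes from 0.35 for HSP90B1 to 1.64 for DNAJB9, beside 17.0% of all tested genes higher and 26.3% lower. Among all genes at an FDR under 0.05, 55.0% were higher in CDCA as deposited and 39.3% with that scaling.

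**Figure D3:**
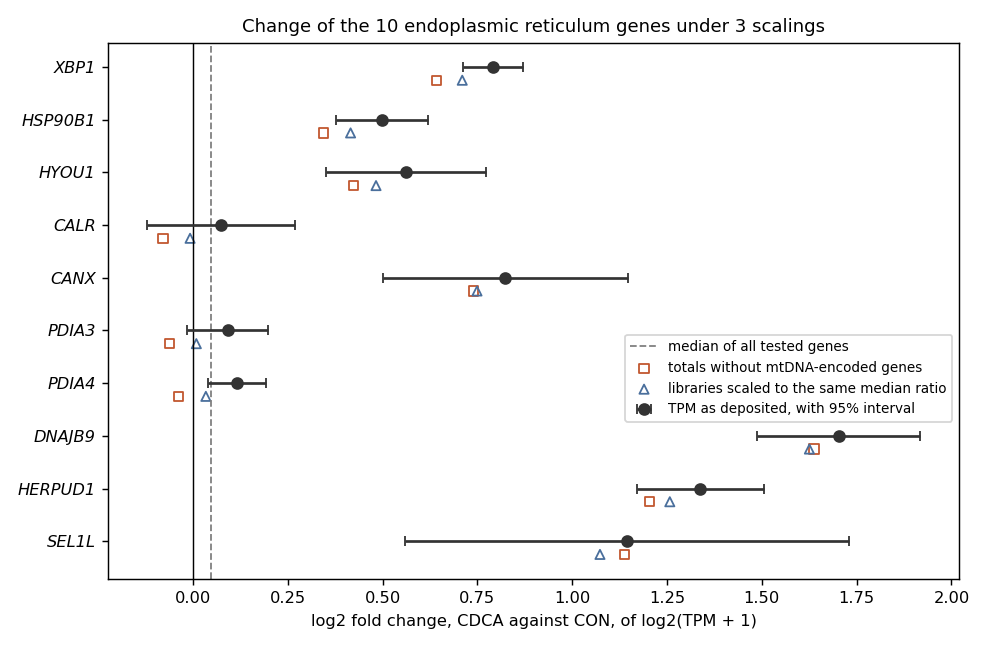
Log2 fold change of log2(TPM + 1), CDCA against CON (horizontal axis), of each gene: filled points with 95% intervals from limma for TPM as deposited, open squares for totals without mtDNA-encoded genes, open triangles for libraries scaled to the same median ratio, and a dashed line at the median of all tested genes (0.05). DNAJB9, HERPUD1 and SEL1L lie above 1 under each of the 3 scalings, and CALR, PDIA3 and PDIA4 lie within 0.12 of 0.

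DNAJB9 encodes ERdj4, a J-domain partner of BiP that is also known to restrain IRE1. Without CDCA it had 7.18, 8.48 and 6.80 TPM, and with CDCA 28.1, 24.6 and 27.0 TPM. Every CDCA library lay far above every CON library, and the log2 fold change of 1.70 (SE 0.09, limma FDR 2.1e-05) was the largest of the 10. Omitting any single library gave 1.64 to 1.79. Of its 2 listed transcripts, the minor one was at no more than 0.04 TPM in any library.

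HERPUD1 is an ER membrane protein that organizes the HRD1 ubiquitin ligase complex of ERAD. Its values were 29.4, 31.8 and 28.1 TPM for CON against 80.0, 80.1 and 70.5 TPM for CDCA, again far from overlap. HERPUD1 rose by 1.34 on the log2 scale (SE 0.07, limma FDR 2e-05). SEL1L, the adaptor that links substrates to HRD1, was the least abundant of the 10 genes, with CON values of 2.24, 3.80 and 5.54 TPM and CDCA values of 9.69, 8.19 and 10.2 TPM. Its CON libraries were spread widely, and the log2 fold change of 1.14 (SE 0.24, limma FDR 0.0075) was 0.88 without CON replicate 1, which is under the fold limit but still at an FDR under 0.05. The log2 ratio of HERPUD1 to SEL1L averaged 3.04 ± 0.69 (SD, n = 3) in CON and 3.04 ± 0.25 (SD, n = 3) in CDCA (two-sided exact permutation p = 1.0, also after adjustment over 4 ratios), and the CON spread is too wide to show that both changed alike.

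The order of the 10 genes by mean TPM was the same in both groups: PDIA3, HSP90B1, PDIA4, CALR, XBP1, HERPUD1, HYOU1, DNAJB9, CANX and SEL1L. In CON the ranges of DNAJB9 and CANX overlapped, as did those of CANX and SEL1L; no other neighbours overlapped, and none did in CDCA. Together the genes summed to 1290 TPM (SD 23) in the CON group and to 1603 TPM (SD 12) in the CDCA group, with n = 3 each. These are TPM as deposited, and the size of the rise depends on the scaling. The sum was not computed with totals without mtDNA genes, where the median log2 fold change of the 10 genes was 0.53 in place of 0.68. Of the sum as deposited, PDIA3 held 39.2% in CON and 33.6% in CDCA, while HERPUD1 went from 2.31% to 4.80% and DNAJB9 from 0.580% to 1.66%. Of the 36 listed transcripts of these genes, 18 averaged 1 TPM or more. Of those, 12 were higher in CDCA at an FDR under 0.05 and none was lower (limma, 0 also at an unadjusted p under 0.05), beside 23.1% and 18.7% of all 12205 listed transcripts tested.

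The other genes of the pathway were read from lists written from general knowledge. Over 5 lists of ER genes together, 125 genes were tested, and 67 of them (53.6%) were higher in CDCA at an FDR under 0.05, 10 were lower and 48 did not pass, with a median log2 fold change of 0.27. Over all tested genes, 29.3% were higher and 23.9% lower, with a median of 0.05. The 67 include HSPA5, DAD1 (named with its values known) and a further ID named DDIT3. These passed the filter only through the CDCA group, with CON means of 0.960, 0.850 and 0.223 TPM. The pooled count was made on TPM as deposited only, and counts with totals without mtDNA genes are given list by list. Of the 30 tested genes of the chaperone and foldase list, 10 (33.3%) were higher, 8 (26.7%) lower and 12 neither, with a median of 0.10, which is close to the shares over all genes. Totals without the mtDNA genes also scale the listed TPM up to 1000000, so that more genes pass the filter on low values (11155 in place of 8708), and of the 33 chaperone and foldase genes then tested, 7 were higher and 10 lower, beside 17.0% and 26.3% of all genes at that scaling. HSPA5, 1 of the 10, had 0.66, 0.99 and 1.23 TPM without CDCA and 3.93, 3.88 and 3.48 TPM with it, from 1 listed transcript. Its CON mean lay under 1 TPM, so it passed the filter only through the CDCA group, and its values are given as a description. ERO1B, an oxidase that recharges disulfide isomerases, rose 2.43-fold (limma FDR 0.0012) and TMX4, a membrane thioredoxin-like protein, 2.73-fold (limma FDR 0.011). Among the genes that fell, picked after their values were seen, were the ER reductase gene DNAJC10 (ratio 0.640), SDF2 (0.660), ERP29 (0.673) and FKBP9 (0.696). MANF, an ER stress-inducible secreted protein in other cells and also picked after its values were seen, was lower too. It had a CON mean of 163 TPM (SD 6.0) and a CDCA mean of 143 TPM (SD 5.9, n = 3 each, limma FDR 0.017). PDIA6 had a ratio of 1.05 (limma FDR 0.19) and CRELD2 one of 0.994 (limma FDR 0.91), both named after their values were seen.

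Of 32 tested ERAD genes beside HERPUD1 and SEL1L, 17 (53.1%, beside 29.3% of all genes) were higher, 1 (3.12%, beside 23.9%) was lower and 14 did not pass, with a median log2 fold change of 0.33. SYVN1, the HRD1 ubiquitin ligase to which SEL1L binds, had 66.2, 70.1 and 66.9 TPM for CON and 88.0, 114 and 99.5 TPM for CDCA, a rise without overlap (log2 fold change 0.55, limma FDR 0.0023). The deposited table names and describes this ID as SYVN1, but the separate list of Ensembl names calls it FAU and gives SYVN1 to another ID, which had 16.2, 12.1 and 11.3 TPM for CON and 21.1, 4.05 and 11.3 TPM for CDCA, so the SYVN1 value is uncertain. DERL3 of the derlin family rose 2.57-fold from 1.57 TPM, and FAF2, which recruits the VCP ATPase, rose 1.90-fold. DERL1 had a ratio of 1.17 (limma FDR 0.031), a call that was lost under several other settings, among them totals without mtDNA genes (log2 fold change 0.07). Chosen after its value was seen, the lectin gene OS9, which delivers glycoproteins to the SEL1L complex, rose 1.82-fold, from 18.7 to 34.1 TPM. UBE2J2, a ubiquitin-conjugating enzyme gene also named with its value known, was the one that fell (ratio 0.819, limma FDR 0.0077). VCP itself, also named after its values were seen, had a mean of 236 TPM in CON and a ratio of 1.07 (limma FDR 0.069).

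Genes for entry into the ER followed. Of 24 tested genes of the translocon, the signal recognition particle and the signal peptidase, 18 (75%, beside 29.3% of all genes) were higher and none was lower, beside 23.9% of all genes (limma, 0 also at an unadjusted p under 0.05), with a median log2 fold change of 0.33. SEC61A1, the channel subunit, rose 1.47-fold from 85.5 TPM (SD 2.7, n = 3), TRAM1 rose 1.48-fold and SEC61A2 1.80-fold. Of 18 tested genes of N-glycosylation and the calnexin cycle, 12 (66.7%, beside 29.3% of all genes) were higher and none lower, beside 23.9% (limma, 0 also at an unadjusted p under 0.05), with a median of 0.26. DAD1, 1 of the 12 and named with its values known, passed the filter only through the CDCA group (means of 0.850 and 1.79 TPM). Largest on the log2(TPM + 1) scale were DPAGT1, which starts the glycan precursor (2.17-fold), PRKCSH, the glucosidase II beta subunit (2.17-fold), and LMAN1, a cargo receptor for glycoproteins (1.86-fold). With totals without the mtDNA genes, 12 of 24 translocon genes and 5 of 19 glycan genes were higher, 0 and 2 were lower, and of 32 ERAD genes 12 were higher and 2 lower, beside 17.0% higher and 26.3% lower of all genes at that scaling.

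Of the UPR sensors and their factors, 21 gene IDs were tested, 10 (47.6%, beside 29.3% of all genes) were higher, 1 (ATF5, named with its value known; 4.76%, beside 23.9%) was lower and 10 did not pass, with a median log2 fold change of 0.22. ATF6, the sensor that is cleaved in the Golgi, rose 1.88-fold, to 28.5 TPM (SD 5.0, n = 3), or by 0.87 on the log2 scale (limma FDR 0.0061). EIF2AK3, which encodes PERK, averaged 2.0 TPM (SD 0.72) without and 2.43 TPM (SD 0.56) with CDCA, n = 3 each, which overlapped (limma FDR 0.45). The gene ID that a separate list of Ensembl names gives to ERN1, which encodes IRE1 alpha, is named ICAM2 in the deposited table but described there as ERN1. It had 0.37, 0.27 and 0.22 TPM without CDCA and 1.81, 0.40 and 1.08 TPM with it, under the filter on low values, and was not tested. Far larger than any of the 10 described genes were DDIT3 (CHOP) with a log2 fold change of 3.86, TMBIM6 with 3.26 and CHAC1 with 2.90, the largest of this list. By mean TPM their ratios were 15.6, 15.9 and 8.43. TMBIM6 had a mean of only 1.40 TPM in CON, close to the filter, and 22.2 TPM in CDCA. Its fold is therefore uncertain, and whether all of its transcripts are listed is unknown. A further gene ID also named DDIT3 had a mean of 0.223 TPM in CON and 2.09 TPM in CDCA, and reads shared by both copies could have been split between them. It is 1 of the 10 IDs counted as higher and passed the filter only through the CDCA group. With no filter, 9 of 26 IDs were higher, beside 11.5% of all genes. With totals without mtDNA genes, 8 of 23 IDs were higher and 1 was lower, beside 17.0% and 26.3% of all genes at that scaling.

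**Figure D4:**
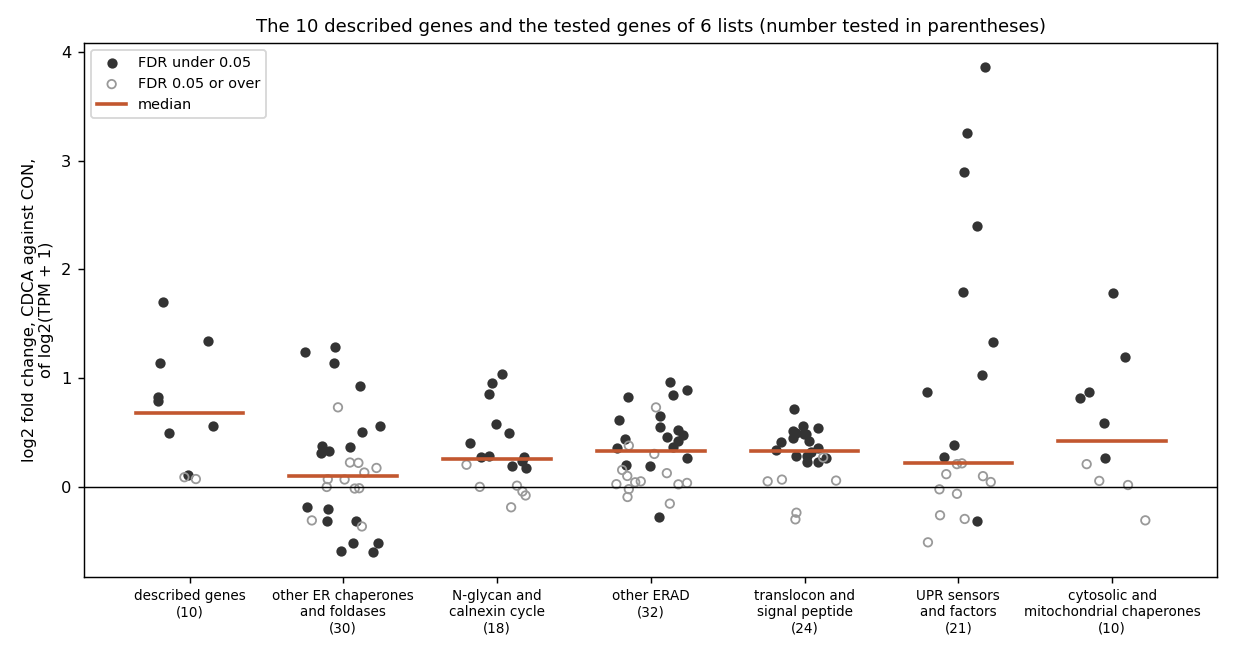
Log2 fold change of log2(TPM + 1), CDCA against CON (vertical axis), of the 10 described genes and of the tested genes of 6 lists; each point is a gene, filled where the limma FDR is under 0.05, and the bar is the list's median. The medians are 0.68 for the described genes and 0.10, 0.26, 0.33, 0.33, 0.22 and 0.43 for the lists from left to right.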

How the data were processed

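Per the labels, 6 libraries were made from total RNA of IPEC-J2 cells with an Illumina TruSeq kit. The deposited values are TPM, which the authors computed with RSEM, 1 row for each of 63041 transcripts without transcript IDs; no filter is stated. The submitters' processing notes name Bowtie 0.12.2 and the mouse build mm10, although the IDs are pig Ensembl IDs; the RSEM version and annotation release are not given in the sources used here. The study states the clean reads per library, but TPM do not give the reads per gene, and no counting interval was computed.

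TPM were summed per gene ID. Symbols came from the deposited table, and for 782 further IDs from a separate list of Ensembl names; 17501 IDs had one. For 267 IDs the names differ, and the deposited name was used. A gene averaging 1 TPM or more across libraries entered the test, made by limma 3.58.1 under R 4.3.3 (lmFit, eBayes with a trend) on log2(TPM + 1), CDCA against CON, with Benjamini-Hochberg adjustment over all 8708. The authors used edgeR, which needs counts. Steps were tested on simulated data. Ratios within a library were tested by exact permutation (SciPy 1.17.1).

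The 10 genes, the lists and the rule for named genes were chosen with earlier results of these data known. The rule named the 10 genes, HSPA5, ERN1, ATF6, EIF2AK3, SYVN1 and DERL1, and the 3 largest changes of each of 6 lists at an FDR under 0.05; other names are said to be picked later, and 1 gene that the rule named is not reported here. Alternatives were a pseudocount of 0.1 TPM, no filter, 3 other scalings, the highest listed transcript, no trend, a replicate block and each library left out. Sequence features were not analysed here.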

Additional observations from a re-analysis of the deposited data

How the results depend on the processing

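Over 14 alternatives, 7 or 8 of the 10 genes were higher at an FDR under 0.05 and none was lower, beside 11.5% to 29.1% of all tested genes higher and 9.11% to 28.4% lower. Of the 10, XBP1, HSP90B1, HYOU1, CANX, DNAJB9, HERPUD1 and SEL1L passed in each, and PDIA4 was the gene that was lost. It lost its call with the same median ratio (log2 fold change 0.03), without a trend (FDR 0.098), with the replicate block (FDR 0.061) and without CON replicate 2, CDCA replicate 1 or CDCA replicate 3 (FDR 0.058 to 0.072), and its sign turned with totals without mtDNA genes (-0.037). With that scaling CALR (-0.079) and PDIA3 (-0.062) also turned, as did CALR with the same median ratio (-0.0073). EIF2AK3 turned without CON replicate 3 (-0.0063, up to 0.33 without another library).

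The median log2 fold change of the 10 genes, 0.68, was 0.53 with totals without mtDNA genes, 0.60 with the same median ratio and 0.63 to 0.71 with 1 library left out. With totals without mtDNA genes, 5 N-glycan genes were higher and 2 lower, and 2 ERAD genes were lower, beside 17.0% higher and 26.3% lower of all genes at that scaling; with the same median ratio 1 N-glycan gene was lower, beside 28.4%. With 1 library left out, 0 to 1 N-glycan genes, 1 to 2 UPR genes and 0 to 1 cytosolic or mitochondrial chaperone genes were lower, beside 19.9% to 22.3% of all genes. The log2 ratio of HSP90B1 to HSP90AB1 changed by 0.30 (-0.63 to 1.44 with 1 library left out) and that of HERPUD1 to SEL1L by 0.0006 (-0.35 to 0.34), so neither has a stable sign; HSP90AB1 was listed near 1 TPM. Over all genes, 306 passed both limits upwards and 340 downwards. These counts were 509 and 505 with a pseudocount of 0.1 TPM, 523 and 481 with listed TPM rescaled to 1000000, and 367 and 669 with totals without mtDNA genes. The cause of these shifts was not tested.

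The numbers of the libraries gave no sign of a pairing: deviations from the group means of same-numbered libraries correlated at -0.092 to -0.035. With 3 libraries per group this cannot show that the cultures were unpaired. With the replicate block, 7 of the 10 genes were higher, beside 26.6% of all genes. TPM do not give the reads behind a gene, and the counting error of the low values of SEL1L, CANX and HSPA5 was not computed.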

Other observations

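Chaperones outside the ER were read beside the genes described above, from a list of 12 cytosolic and mitochondrial chaperone genes. Of 10 tested genes, 6 (60.0%, beside 29.3% of all tested genes) were higher in CDCA than in CON and none was lower, beside 23.9% (limma, 0 also at an unadjusted p under 0.05), with a median log2 fold change of 0.43. HSPH1, a nucleotide exchange factor of HSP70, had 7.83, 8.14 and 6.26 TPM for CON against 31.0, 38.8 and 17.8 TPM for CDCA. The CDCA libraries were spread widely but all above CON, with a log2 fold change of 1.78 (limma FDR 0.0016). DNAJB1, an HSP40 induced by heat shock in other cells, had CON values of 78.0, 78.5 and 70.3 TPM and CDCA values of 168, 221 and 143 TPM, a log2 fold change of 1.20 (limma FDR 0.00074). In both genes CDCA replicate 2 was the highest library and CDCA replicate 3 the lowest of its group. HSPA9, the HSP70 of mitochondria, rose 1.83-fold, to 231 TPM (SD 2.3, n = 3, limma FDR 3.6e-05). HSPA8, the constitutive cytosolic HSP70, chosen after its values were seen, went from 351 to 621 TPM (limma FDR 0.00028). HSP90AB1, which is abundant in most cells, averaged 1.00 TPM (SD 0.78) without and 1.01 TPM (SD 0.71) with CDCA, n = 3 each, so the ratio of HSP90B1 to it had no usable denominator (log2 difference 0.30, two-sided exact permutation p = 0.7, 0.93 after adjustment over 4 ratios).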
